A study of Arabidopsis thaliana with 28 samples.

Results

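Seedlings of the pif7 mutant were set against those of the wild type Col-0 in a long-day cycle at an unchanging 17 °C. All 14 libraries of that regime were used, of 28 in the series: 7 of Col-0 and 7 of pif7, taken at lights on (ZT0, where ZT counts the hours from then) and at ZT4, ZT5 and ZT8, then every 4 h to ZT20. The plants were 7 days old, were grown on plates with 16 h of light and 8 h of dark, and whole seedlings were frozen and sequenced as directional paired-end RNA libraries. Each genotype and time had 1 library, so each pif7 library was paired with the Col-0 library of the same time, and the 7 pairs carried the test. There was no replicate at any time, and a p-value here measures how steady a difference was over the 7 times of day. The other 14 libraries, from the same genotypes with a midday at 27 °C from ZT4 to ZT12 and 17 °C otherwise (the oscillating regime), served as separate libraries in which the same difference was read again. The labels call the mutant pif7 and name no allele, so the loss of PIF7 and any other difference between this line and the Col-0 stock cannot be told apart.

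PIF7 belongs to the phytochrome-interacting factors, a family of helix-loop-helix regulators of transcription. Phytochromes, the red and far-red photoreceptors, bind these factors and restrain them in light, and shade or warmth releases them. Active PIF7 binds the G-box CACGTG and related E-boxes such as CATGTG, and is known for raising auxin synthesis and auxin-response genes that drive hypocotyl and petiole growth. Constant 17 °C is a cool condition for Arabidopsis seedlings, below the warmth under which PIF7 is best known to act.

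Few genes differed steadily between the genotypes. Of 20594 genes tested, 15 (0.0728%) reached an adjusted p under 0.05 (Benjamini-Hochberg) in limma, a linear model fitted to all genes, with the time of day as a block. Of these, 8 were higher in pif7 (0.0388% of genes tested) and 7 were lower (0.034%). At an unadjusted p under 0.05 there were 708 genes (3.44%). The count of 15 became 24 when ZT16 was left out and 9 when time was not held as a block. Differences are given as pif7 minus Col-0 in log2(TPM + 1) after scaling. TPM is the deposited measure of transcript abundance, normalised for gene length and depth. The value after ± is the moderated standard error (SE) of limma. It draws the spread of each gene over the 7 pairs toward that of genes at a similar level. It is therefore not the observed spread of the pairs alone. All 15 had the same sign in 7 of 7 pairs, which held for 261 genes (1.27%) of those tested. In 9 of the 15 the deposited TPM values of the 7 pif7 libraries did not overlap those of the 7 Col-0 libraries, a pattern seen in 11 genes (0.0534%) of all tested. The median difference over all genes was 0.00.

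The library depth, derived from deposited coverage and FPKM, was 1.70 to 2.07 gigabases in Col-0 and 1.81 to 2.13 in pif7, and 23129 to 23402 reference genes were above 0. Plastid genes took 3.65% to 5.80% of the summed TPM in Col-0 and 3.39% to 4.91% in pif7. The pairs differed in noise: the SD of the gene differences ran from 0.220 at ZT4 to 0.389 at ZT0. Differences of at least 1 log2 unit were mostly upward in the ZT12 pair (208 higher, 20 lower, of 15561 genes) and the ZT0 pair (153 and 31). They were mostly downward in the ZT5 pair (12 and 111) and the ZT16 pair (13 and 97). The 1559 shortest genes had median differences of 0.36, 0.00, -0.01, -0.02, 0.33, -0.29 and 0.20 from ZT0 to ZT20. The 1557 longest had -0.31, 0.12, 0.09, 0.04, -0.31, 0.17 and -0.25. Short and long genes thus moved apart at ZT0, ZT12, ZT16 and ZT20, while the downward pair at ZT5 showed little of this and the ZT20 pair had no skew (33 higher, 37 lower). With a trend over gene length removed, all 15 genes still passed. Root markers summed to 1485 to 2128 TPM in Col-0 and 1566 to 2121 in pif7, stomatal lineage markers to 144 to 204 and 157 to 193, and seed storage markers to 2.18 to 6.22 and 3.37 to 7.27, so these ranges overlapped between the genotypes, and no member of the 3 lists was at 0 in every library. In whole seedlings, fewer cells of a type and less RNA per cell cannot be told apart.

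PIF7 itself (AT5G61270, TAIR10 chromosome 5, 24638773 to 24640600, minus strand) had a lower transcript level in the mutant. From ZT0 to ZT20 the Col-0 libraries held 9.74, 38.6, 34.5, 28.02, 14.7, 11.4 and 13.4 TPM. The pif7 libraries held 3.12, 13.1, 12.4, 8.64, 3.46, 2.62 and 2.33 TPM at the same times. Both genotypes were highest at ZT4 and declined through the afternoon, so the groups overlapped across times although each pif7 library lay below its own Col-0 partner. The difference was -1.64 ± 0.10 (moderated SE, 7 pairs, adjusted p = 7.84e-05, lower in 7 of 7). The pif7 level was 17.44% to 36.0% of the Col-0 level, with a median of 30.8%, and the share was smallest at ZT20. Without the time block the daily course of PIF7 enters the error, and the adjusted p was 1. The adjoining gene AT5G61260, a calmodulin-binding-like protein whose annotated end lies 173 bases from PIF7 on the plus strand, held 1.12 to 2.73 TPM in Col-0 and 1.96 to 4.90 in pif7. Its difference of 0.56 ± 0.09 was positive in 7 of 7 pairs and did not pass (adjusted p = 0.0988). Under the oscillating regime its difference was 0.08, positive in 5 of 7 pairs. Between regimes the difference was 0.48 (unadjusted p = 0.00289, adjusted p = 0.876 in limma). AT5G61260 was named after its values were seen. No other gene within 1 megabase of PIF7 passed, beside 0.0728% of all genes tested. The number tested in that window was not computed, so this carries no information on the locus.

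The bases before the annotated start of PIF7 are shown with those of 3 other genes that passed, chosen after their values were seen: HCF243, which also fell, and MRD1 and QQS, which rose. Capitals mark CATGTG and its reverse complement CACATG, which overlap at 1 place in PIF7 and in HCF243. Each run gives 250 bases of the TAIR10.1 nuclear genome. Its annotation shared at least 1 end of the gene with the deposited positions in 40.6% of 20325 genes, and both ends in 10.2%. Agreement at the gene start alone was not computed.
PIF7, chr5:24640601-24640850, minus strand: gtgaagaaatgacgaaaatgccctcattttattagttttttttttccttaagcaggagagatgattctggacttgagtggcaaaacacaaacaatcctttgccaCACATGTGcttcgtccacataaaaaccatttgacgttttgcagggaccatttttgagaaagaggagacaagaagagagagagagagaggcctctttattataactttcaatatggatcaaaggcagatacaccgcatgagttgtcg
HCF243, chr3:5081530-5081779, plus strand: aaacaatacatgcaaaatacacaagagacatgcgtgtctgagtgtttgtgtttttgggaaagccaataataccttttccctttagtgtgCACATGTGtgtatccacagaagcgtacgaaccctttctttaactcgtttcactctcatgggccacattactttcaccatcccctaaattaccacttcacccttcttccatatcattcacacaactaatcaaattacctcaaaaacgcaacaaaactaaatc
MRD1, chr1:19964713-19964962, minus strand: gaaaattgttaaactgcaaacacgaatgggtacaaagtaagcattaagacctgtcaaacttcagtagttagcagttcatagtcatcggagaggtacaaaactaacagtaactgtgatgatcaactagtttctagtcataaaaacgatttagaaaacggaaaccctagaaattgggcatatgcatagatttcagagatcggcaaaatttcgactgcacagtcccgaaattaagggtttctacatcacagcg
QQS, chr3:12348797-12349046, plus strand: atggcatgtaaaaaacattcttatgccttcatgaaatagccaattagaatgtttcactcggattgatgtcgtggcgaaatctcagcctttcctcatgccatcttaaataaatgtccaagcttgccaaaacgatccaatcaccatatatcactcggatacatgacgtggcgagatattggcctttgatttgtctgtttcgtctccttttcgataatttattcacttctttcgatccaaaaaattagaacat
The overlapping pair began 146 bases before the start of PIF7 and 161 bases before that of HCF243. The motifs were searched on both strands from 250 bases before to 50 bases after the start. CACGTG was present in 9.32% of 20413 such windows of tested nuclear genes, in 0 of the 8 genes higher in pif7 and in 0 of the 7 lower. CATGTG was present in 11.5% of all windows, in 1 of the 8 and in 2 of the 7, PIF7 being among the latter. The match in the higher group was in AT3G29120, starting 42 bases after the gene start. These are letter matches in short windows and carry no information on binding.

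**Figure D1:**
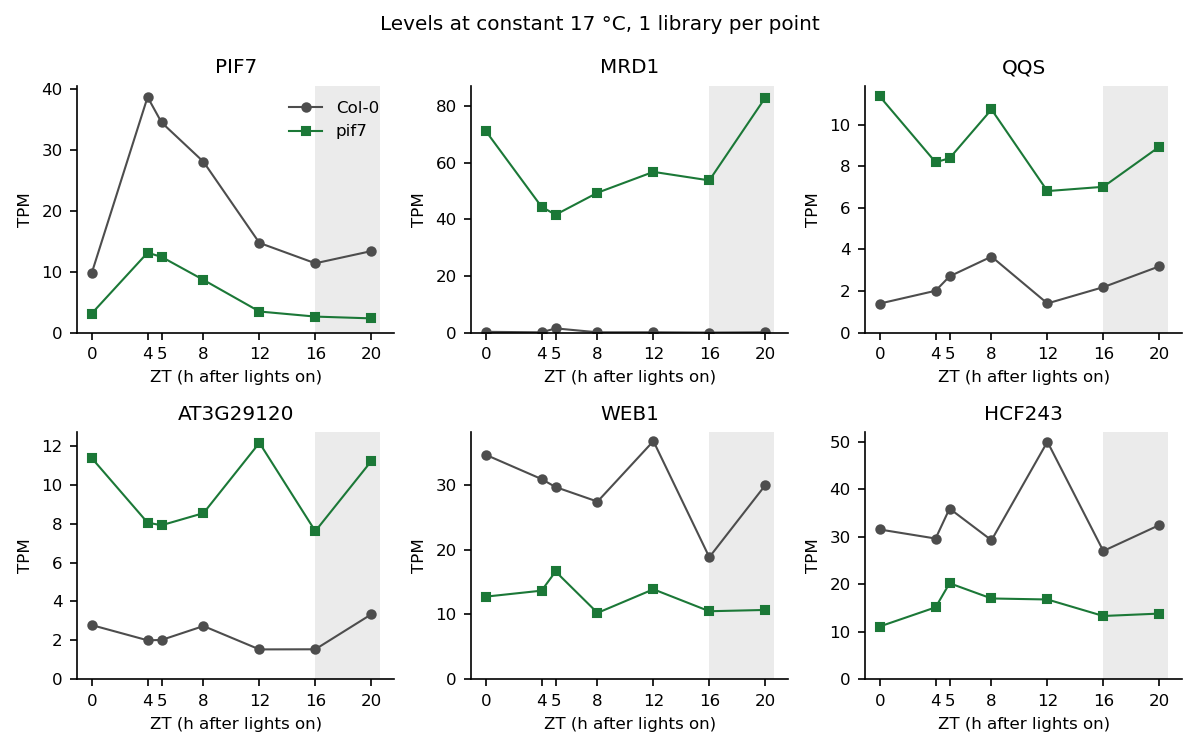
TPM (y axis, linear, from 0) against ZT in hours (x axis) for 6 genes at constant 17 °C, 1 library per point, Col-0 in grey circles and pif7 in green squares, with the dark hours shaded. In PIF7, WEB1 and HCF243 each pif7 point lies below its Col-0 partner, and in MRD1, QQS and AT3G29120 each lies above it.

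The gene with the largest difference was MRD1 (AT1G53480, chromosome 1, 19963047 to 19964712, minus strand), named for its fall in a methionine-overaccumulating mutant and of unknown role. From ZT0 to ZT20 it held 0.27, 0.095, 1.49, 0.099, 0.105, 0.00 and 0.098 TPM in Col-0. In pif7 it held 71.3, 44.5, 41.7, 49.5, 56.8, 53.8 and 83.04 TPM. It was thus at or near 0 in every Col-0 library and well expressed in every pif7 library, with no overlap. Apart from ZT5 every Col-0 library was below 1 TPM, the level needed in 2 libraries for testing. MRD1 therefore entered the test only through its level in pif7. The difference was 5.52 ± 0.20 (adjusted p = 7.1e-07), and since Col-0 was near 0 its size depends on the pseudocount, from 3.53 with 5 to 7.74 with 0.1. HEI10 (AT1G53490), a ligase of meiotic crossover formation, shares 1446 bases with MRD1 on the opposite strand. It held 0.875 to 1.59 TPM in Col-0 and 2.26 to 2.96 in pif7, a difference of 0.74 ± 0.09 (adjusted p = 0.00788). The strand setting used in quantification is not given in the sources used here, so reads of MRD1 and HEI10 cannot be told apart with certainty.

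QQS (AT3G30720, chromosome 3, 12349047 to 12349832, plus strand) is an orphan gene known to affect the split of carbon and nitrogen between starch and protein. Its Col-0 libraries held 1.39, 2.01, 2.70, 3.65, 1.402, 2.18 and 3.18 TPM from ZT0 to ZT20. Its pif7 libraries held 11.4, 8.19, 8.38, 10.7, 6.80, 7.01 and 8.93. The lowest pif7 value was above the highest Col-0 value. The difference was 1.57 ± 0.14 (adjusted p = 0.00089). AT3G29120, an annotated pseudogene on the same chromosome (11098505 to 11099198, plus strand), held 1.53 to 3.34 TPM in Col-0 and 7.62 to 12.2 in pif7, again without overlap. Its difference was 1.70 ± 0.12 (adjusted p = 0.000132).

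The remaining genes that rose were read at moderate levels. The noncoding RNA gene AT4G04223 (chromosome 4, 2036511 to 2037816, plus strand) held 8.94 to 24.3 TPM in Col-0 and 23.4 to 58.5 in pif7, a difference of 1.16 ± 0.12 (adjusted p = 0.00196). The noncoding RNA gene AT5G38005 held 5.08 to 9.63 TPM in Col-0 and 9.07 to 26.4 in pif7 (1.21 ± 0.15, adjusted p = 0.0127). In each of these 2 the highest Col-0 library, at ZT20, was just above the lowest pif7 library, at ZT4. AT3G52870, an IQ calmodulin-binding family member, ran in Col-0 through 12.9, 8.44, 14.7, 53.6, 46.6, 40.4 and 62.7 TPM from ZT0 to ZT20. In pif7 it ran through 59.9, 49.1, 47.5, 81.1, 94.0, 102.2 and 121.1. The pair differences were 2.26, 2.43 and 1.64 at ZT0, ZT4 and ZT5, and between 0.52 and 1.15 at the other times. These times were grouped after the values were seen, with 1 library per genotype at each, and the pattern was not tested. Under the oscillating regime the differences were 0.656, 3.575 and 1.891 at ZT0, ZT4 and ZT5, and between 0.358 and 1.412 at the other times. Its mean difference of 1.44 ± 0.20 passed (adjusted p = 0.0356), as did that of AT4G02200, a drought-responsive family member at 7.60 to 16.7 TPM in Col-0 and 16.2 to 22.6 in pif7 (0.83 ± 0.12, adjusted p = 0.0329). AT3G52870 and AT4G02200 each passed in 10 of 19 alternative settings, and AT5G38005 in 15 of 19. When 1 time was left out AT4G02200 passed only without ZT16 (adjusted p otherwise 0.0549 to 0.212), and AT3G52870 only without ZT8 or ZT16 (otherwise 0.0724 to 0.152). AT5G38005 did not pass without ZT5 or ZT20 (adjusted p = 0.0549 and 0.0871).

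Of the genes that fell, 3 encode proteins tied by earlier work to light use or blue-light responses, a grouping made after their names were seen. WEB1 (AT2G26570, chromosome 2, 11299144 to 11302191, plus strand), a coiled-coil protein of chloroplast movement under blue light, held 34.7, 30.9, 29.7, 27.5, 36.8, 18.9 and 30.0 TPM in Col-0 from ZT0 to ZT20. It held 12.8, 13.7, 16.6, 10.2, 13.9, 10.5 and 10.7 in pif7. Every pif7 library was below every Col-0 library, and the difference was -1.16 ± 0.09 (adjusted p = 0.000164), 2.23-fold lower on the log2(TPM + 1) scale. HCF243 (AT3G15095, chromosome 3, 5081780 to 5084240, plus strand), a chloroplast protein that stabilises the D1 subunit of photosystem II, held 31.5, 29.6, 35.9, 29.3, 50.04, 27.0 and 32.5 TPM in Col-0. It held 11.1, 15.1, 20.2, 17.0, 16.8, 13.3 and 13.8 in pif7. The groups did not overlap, and the difference was -1.07 ± 0.09 (adjusted p = 0.000451), 2.101-fold lower. AT3G50840, of the NPH3 family of phototropin partners, held 11.6 to 22.03 TPM in Col-0 and 6.68 to 12.3 in pif7, with a small overlap because the ZT0 library of Col-0 was low. Its difference was -0.89 ± 0.10 (adjusted p = 0.00482).

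The other 3 genes that fell were weakly expressed noncoding or repeat-derived loci. AT4G03990, a pseudogene on chromosome 4 (1916461 to 1917816, minus strand), held 1.89 to 5.32 TPM in the 7 Col-0 libraries and was listed at 0 in all 7 pif7 libraries. The gene thus entered the test only through its level in Col-0. It was also listed at 0 in all pif7 libraries of the oscillating regime, against 2.19 to 4.16 TPM in Col-0 there. The noncoding RNA gene AT2G05995 held 3.26 to 9.58 TPM in Col-0 and 0.00 to 1.495 in pif7 (-1.77 ± 0.12, adjusted p = 0.000111). SADHU3-2 (AT3G42658), an annotated pseudogene of the SADHU family of retroposons, held 3.71 to 8.93 TPM in Col-0 and 1.99 to 2.91 in pif7 (-1.10 ± 0.10, adjusted p = 0.000763). None of these 3 overlapped between the genotypes.

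By annotated type, the 15 genes were 9 protein-coding genes, 3 pseudogenes and 3 noncoding RNA genes, while 95.39% of genes tested were protein coding, 0.51% pseudogenes and 0.55% noncoding RNA genes. By position, 6 lay on chromosome 3, 3 on chromosome 4 and 2 on each of the other chromosomes. The share of all tested genes on each chromosome was not computed, so these counts have no background beside them. AT4G03990 and AT4G04223 lay 118.7 kilobases apart and moved in opposite directions. None of the 15 other than PIF7 was in any of the 25 gene lists described below. Those lists held 483 of the 20594 genes tested, so their absence carries little information. The next gene outside the threshold was AT5G26270 (adjusted p = 0.0576), and the last inside was AT3G52870 (adjusted p = 0.0356).

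These differences recurred in the libraries of the oscillating regime, which are separate seedlings. All 15 genes had the same sign there, and 13 of 15 passed in that fit, in which 77 of 20691 genes (0.372%) passed, 27 of them higher (0.13%) and 50 lower (0.242%), and 1887 (9.12%) had an unadjusted p under 0.05. That count ran from 27 without ZT16 to 102 without ZT4. MRD1 differed by 5.66, QQS by 1.84, AT3G29120 by 1.82, WEB1 by -1.12, HCF243 by -0.87 and PIF7 by -1.43. MRD1 and AT4G03990 entered this fit too only through the genotype in which each was high. The 2 that did not pass were AT5G38005 (0.73, adjusted p = 0.0723) and AT3G52870 (1.44, adjusted p = 0.0947). When the genotype difference itself was compared between regimes, 0 of the 15 passed in limma and 1, AT5G38005 (0.49 larger at constant 17 °C, unadjusted p = 0.0486), was under an unadjusted p of 0.05, as were 710 genes (3.38%) of the 21031 tested between regimes. A p above the threshold does not show that the differences were equal.

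**Figure D2:**
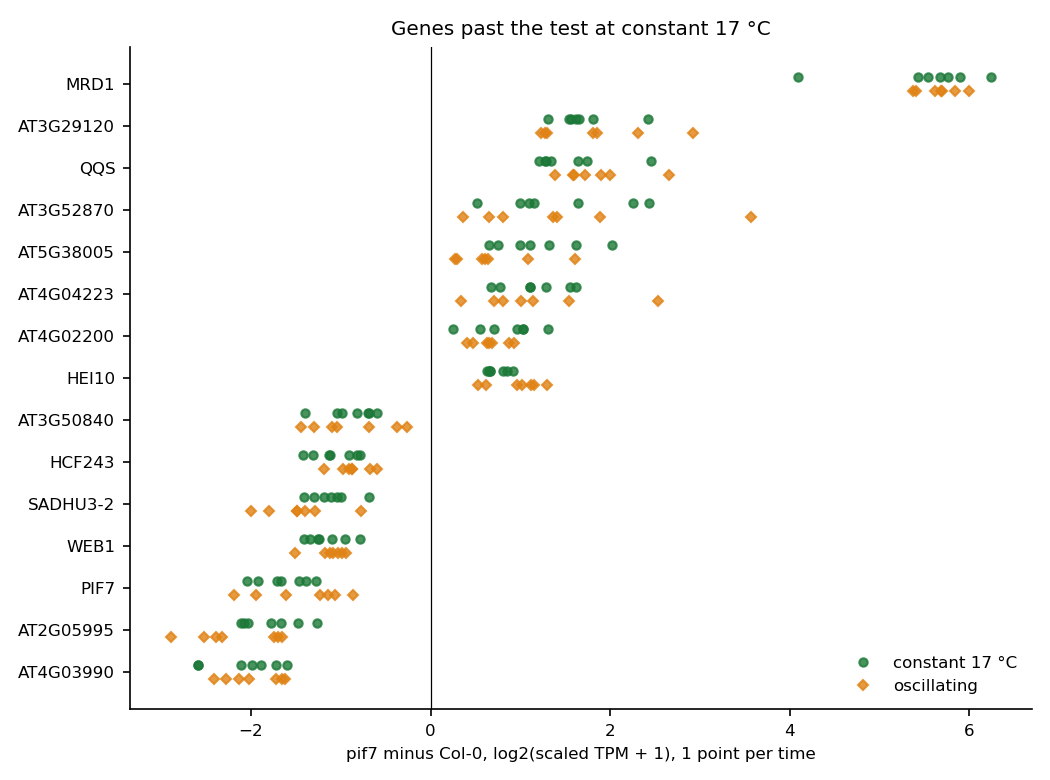
Difference pif7 minus Col-0 in log2(scaled TPM + 1) (x axis) for each of the 15 genes that passed at constant 17 °C (y axis), 1 point per time, green circles for constant 17 °C and orange diamonds for the oscillating regime. All 7 points of each regime lie on the same side of 0 for each gene, MRD1 stands at 4.09 to 6.24 at constant 17 °C, and the other genes lie within 2.6 of 0 there.

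Among the relatives of PIF7 and their photoreceptors, no transcript other than PIF7 passed. PIF4 held 0.123 to 64.0 TPM over the day in Col-0 and 0.771 to 60.3 in pif7, and PIF5, its close paralogue, 5.61 to 95.9 and 6.75 to 99.3, so both kept a wide daily range in each genotype. Their differences were 0.04 ± 0.12 and -0.05 ± 0.08. PIF1, PIF3 and PIF8 (listed as UNE10), further members of the family, differed by -0.04, -0.15 and -0.07. PIF6, at 1.25 to 1.94 TPM in Col-0 and 1.32 to 3.64 in pif7, differed by 0.31 ± 0.12 (higher in 6 of 7 pairs, unadjusted p = 0.0228, adjusted p = 1). The phytochrome genes PHYA, PHYB, PHYC, PHYD and PHYE differed by 0.04, -0.08, -0.02, -0.06 and -0.12, each with overlapping groups.

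In the gene groups known for PIF7-dependent growth in shade and warmth, no gene passed at constant 17 °C. In the list of shade and PIF-associated genes 0 of 28 passed and the median was 0.02, in auxin synthesis and transport 0 of 18 with 0.01, in auxin response 0 of 34 with 0.02, and in cell wall loosening 0 of 23 with 0.03. The background was 0.0728% called and a median of 0.00. At an unadjusted p under 0.05 there were 3 of 28 (10.71%), 2 of 18 (11.11%), 3 of 34 (8.82%) and 1 of 23 (4.35%) in these lists, against 3.44% of all genes. FHL, a shuttle of phytochrome A into the nucleus, held 0.885 to 4.44 TPM in Col-0 and 0.612 to 2.16 in pif7 and was lower in 7 of 7 pairs (-0.41 ± 0.10, unadjusted p = 0.00251, adjusted p = 0.843). The growth-promoting helix-loop-helix genes PRE1 and BEE1 differed by -0.31 and -0.34, the auxin synthesis gene YUC5 by -0.52, the auxin-induced SAUR9 and SAUR20 by -0.45 and -0.38, and the cell wall gene XTH33 by -0.36. SAUR50 and the auxin carrier LAX3 differed the other way, by 0.22 and 0.15. YUC5 and SAUR9 were weakly expressed, averaging 1.35 and 0.64 TPM over the 14 libraries. The adjusted p of PRE1, BEE1, YUC5, SAUR9, SAUR20, XTH33, SAUR50 and LAX3 was 1. The auxin response median depended on single pairs, with 0.44 at ZT0 and -0.39 at ZT16. Without ZT0 it was -0.06, with 24 of 34 members below 0 in place of 16.

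HFR1, a helix-loop-helix inhibitor of PIFs that PIFs themselves raise, held 5.31, 10.5, 12.7, 4.78, 2.72, 3.65 and 3.70 TPM in Col-0 from ZT0 to ZT20. It held 6.41, 7.90, 6.51, 4.66, 3.73, 3.13 and 3.19 in pif7. The groups overlapped, and pif7 was lower in 5 of 7 pairs, most at ZT5, and higher at ZT0 and ZT12. The difference was -0.14 ± 0.14 (unadjusted p = 0.35). IAA29, an auxin-response repressor, ran from 0.612 to 3.74 TPM in Col-0 and from 0.983 to 1.94 in pif7, with a difference of -0.29 ± 0.16 (unadjusted p = 0.0996). YUC8, an auxin synthesis enzyme, differed by 0.01 ± 0.11, IAA19, another auxin-response repressor, by -0.09 ± 0.10, and ATHB2, a shade-induced homeodomain factor, by -0.21 ± 0.12. HFR1, IAA29, YUC8, IAA19 and ATHB2 were added to the rule after earlier results were known.

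Under the oscillating regime the medians of these 4 lists were -0.16 for shade and PIF-associated genes, -0.08 for auxin synthesis and transport, -0.34 for auxin response and -0.14 for cell wall loosening. There 1 of 28, 0 of 18, 1 of 34 and 3 of 23 members passed as lower and 0 as higher, beside 0.242% of all genes lower. The difference of the list medians between regimes was not tested. Tested gene by gene, the difference between regimes passed in 1 of 21031 genes (0.00475%). This was AT5G44440 (chromosome 5, 17910557 to 17912312, minus strand), a FAD-binding enzyme of the berberine family. At constant 17 °C it was listed at 0.00 to 0.115 TPM in Col-0 and 0.00 to 0.281 in pif7, below the level tested there. Under the oscillating regime it held 5.38, 2.24, 1.87, 9.69, 19.4, 19.4 and 14.9 TPM in Col-0 from ZT0 to ZT20 and 0.00 to 0.230 in pif7. It was thus above 1 TPM only in the warmed wild type, also at ZT0 and ZT4, before and at the start of the daily warming. The gene entered the test only through its level in that group, so its value reads the genotype difference under the oscillating regime, with both genotypes near 0 at constant 17 °C. The regime difference was 2.96 ± 0.39 (constant minus oscillating, adjusted p = 0.0178). It did not pass when ZT0, ZT8, ZT12, ZT16 or ZT20 was left out, with an adjusted p of 0.136, 0.212, 0.116, 0.14 and 0.127.

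The next 4 genes by p between regimes did not pass. XTH4, a xyloglucan-modifying cell wall enzyme, held 290.1 to 560.3 TPM in Col-0 and 323.5 to 562.4 in pif7 at constant 17 °C, and its difference there was -0.05 against -0.62 under the oscillating regime (adjusted p = 0.0733). HFR1 had -0.14 against -1.15 (adjusted p = 0.13), AT1G72230, a cupredoxin, 0.20 against -0.54 (adjusted p = 0.105), and AT5G05250, of no annotated function, -0.30 against 0.78 (adjusted p = 0.104). EXPA8, an expansin that loosens cell walls, had 0.21 against -0.97 (adjusted p = 0.207). IAA29 had -0.29 against -2.05 (adjusted p = 0.54), with pair differences under the oscillating regime from -4.19 at ZT8 to -0.56 at ZT4. ATHB2, added to the rule along with IAA29, had -0.21 against -0.32 (unadjusted p = 0.475 in limma).

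**Figure D3:**
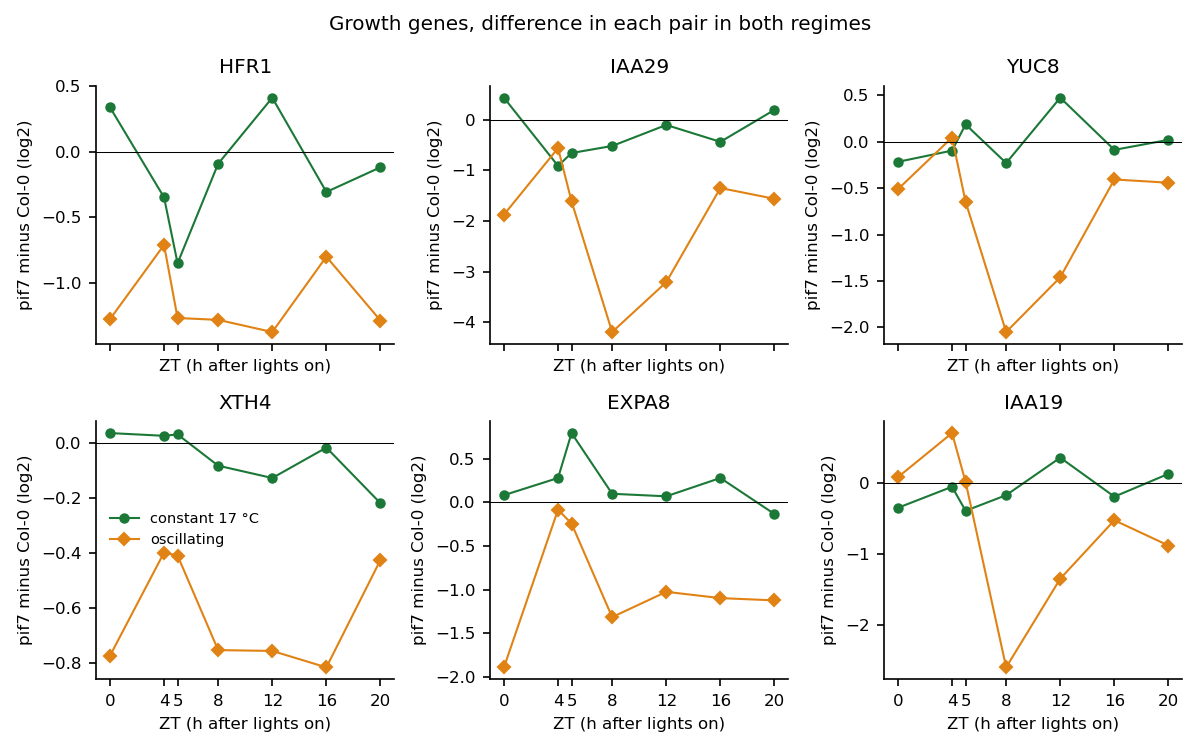
Difference pif7 minus Col-0 in log2(scaled TPM + 1) (y axes, scaled per gene) against ZT in hours (x axes) in each of the 7 pairs at constant 17 °C (green circles) and under the oscillating regime (orange diamonds), for 6 growth-related genes. At constant 17 °C the points lie between -0.91 and 0.80. Under the oscillating regime IAA29 reaches -4.19 and YUC8 -2.05, both at ZT8. The genes drawn were chosen with earlier results of these data known. ATHB2, not drawn, differed by -0.21 at constant 17 °C and by -0.32 under the oscillating regime.

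The jasmonate list, of genes that make, repress or report this wound and defence hormone, had the median farthest from 0. Of 21 members tested, 0 passed, 20 were below 0 (background 49.7%) and the median was -0.44. The ZT5 pair carried most of this, with a list median of -1.65, against -0.45 at ZT8 and -0.13 to 0.01 at the other 5 times. The JAZ repressor genes, which rise when jasmonate signals, summed over 10 members to 174.2, 170.8, 496.6, 197.7, 148.4, 177.7 and 200.4 TPM in Col-0 from ZT0 to ZT20. In pif7 they summed to 195.8, 173.3, 158.1, 140.6, 163.1, 184.6 and 201.2 TPM. The Col-0 library at ZT5 alone was high, and the other 13 lay between 140.6 and 201.2. Without ZT5 the list median was -0.15, with 17 of 20 members below 0. The ZT5 pair also held the lowest differences of some other genes described here, among them HFR1 (-0.85), FHL (-0.77) and VSP2 (-1.07). This did not hold for all, such as IAA29 and LOX2. What set the Col-0 library at ZT5 apart was not tested.

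LOX2, a chloroplast lipoxygenase of jasmonate synthesis, was less bound to ZT5. It held 17.77, 11.7, 42.2, 34.7, 78.0, 85.6 and 100.8 TPM in Col-0 and 6.79, 14.6, 14.6, 16.7, 54.1, 75.5 and 28.9 in pif7. It was lower in pif7 at every time but ZT4, and the difference of -0.84 ± 0.21 did not pass (adjusted p = 0.792). VSP2, a vegetative storage protein induced by jasmonate, differed by -0.49 ± 0.13 (adjusted p = 0.846), also lower in 6 of 7 pairs. Under the oscillating regime the list median was -0.02, and LOX2 and VSP2 differed by -0.24 and -0.06.

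The cold response list, with CBF factors and their COR targets, also had its lowest pair medians at ZT5 and ZT8, and 0 of 19 members passed. It had a median of -0.02 over the pairs, but -0.72 at ZT5 and -0.58 at ZT8, and between -0.17 and 0.20 otherwise. The Col-0 library at ZT5, which stood apart for the JAZ genes, held a summed 3163 TPM of the list against 1607 in the Col-0 library at ZT4, while pif7 held 1800 at ZT5 and 1730 at ZT4. What that library adds to the low values at ZT5 was not tested. Without ZT5 the median was 0.01, with 9 of 19 below 0.

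COR15A, a chloroplast protein that protects membranes in the cold, held 10.1, 15.4, 61.0, 138.7, 126.4, 47.6 and 8.91 TPM in Col-0 from ZT0 to ZT20. It held 11.4, 11.5, 9.46, 30.1, 58.1, 17.9 and 8.37 in pif7. Both genotypes had their highest values at ZT8 and ZT12, and pif7 was lower from ZT4 to ZT20, most at ZT5 and ZT8. The difference of -1.07 ± 0.31 did not pass (unadjusted p = 0.00628, adjusted p = 1). COR15B and COR413IM1 differed by -0.53 and -0.41, with 1 of 7 pairs higher in each.

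**Figure D4:**
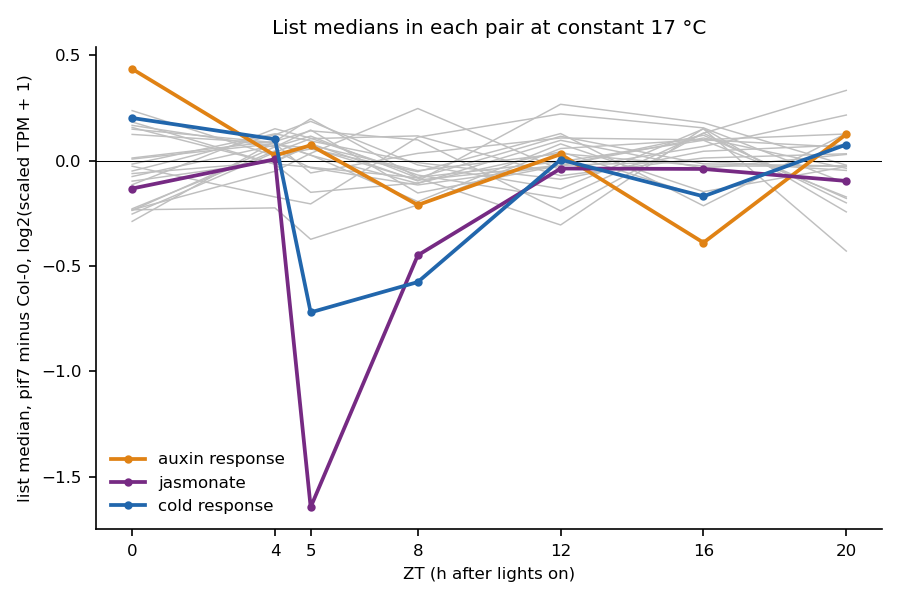
Median difference pif7 minus Col-0 in log2(scaled TPM + 1) over the tested members of each list (y axis) in each pair against ZT in hours (x axis), at constant 17 °C. Jasmonate (purple) and cold response (blue) drop at ZT5 to -1.65 and -0.72, auxin response (orange) moves between 0.44 at ZT0 and -0.39 at ZT16, and the other lists are in grey, with the single seed storage gene left out.

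The remaining lists were close to 0, and 23 of 25 medians lay within 0.1 of 0. Glucosinolate synthesis genes had 19 of 20 members below 0 (background 49.7%), with a median of -0.09 and no member past -0.19. The pair medians were -0.37 at ZT5 and 0.13 at ZT20. Without ZT4 15 of 20 were below 0. Under the oscillating regime 8 of 20 glucosinolate genes were below 0, with a median of 0.03. Light-harvesting antenna genes had a median of 0.03 (0 of 21 passed), chlorophyll synthesis 0.01 (0 of 18), light signalling 0.01 (0 of 24), flavonoid and anthocyanin genes 0.03 (0 of 23), starch and sugar starvation genes -0.04 (0 of 18) and heat shock genes -0.03 (0 of 19). Gibberellin and brassinosteroid genes had -0.04 (0 of 26), ethylene -0.07 (0 of 16), salicylic acid and defence 0.02 (0 of 10), abscisic acid and dehydration -0.01 (0 of 16), nitrate uptake and reduction -0.04 (0 of 12) and cell cycle 0.03 (0 of 21). Root markers had 0.04 (0 of 27), stomatal lineage markers 0.04 (0 of 12) and photoperiod and flowering genes 0.00 (0 of 22). FLC, the floral repressor, held 16.5 to 22.1 TPM in Col-0 and 20.9 to 26.6 in pif7 and was higher in 7 of 7 pairs, but its difference of 0.27 ± 0.09 did not pass (unadjusted p = 0.0171, adjusted p = 1). CDF2, a Dof repressor of CONSTANS, was likewise higher in 7 of 7 pairs, by 0.27 ± 0.08 (adjusted p = 1).

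**Figure D5:**
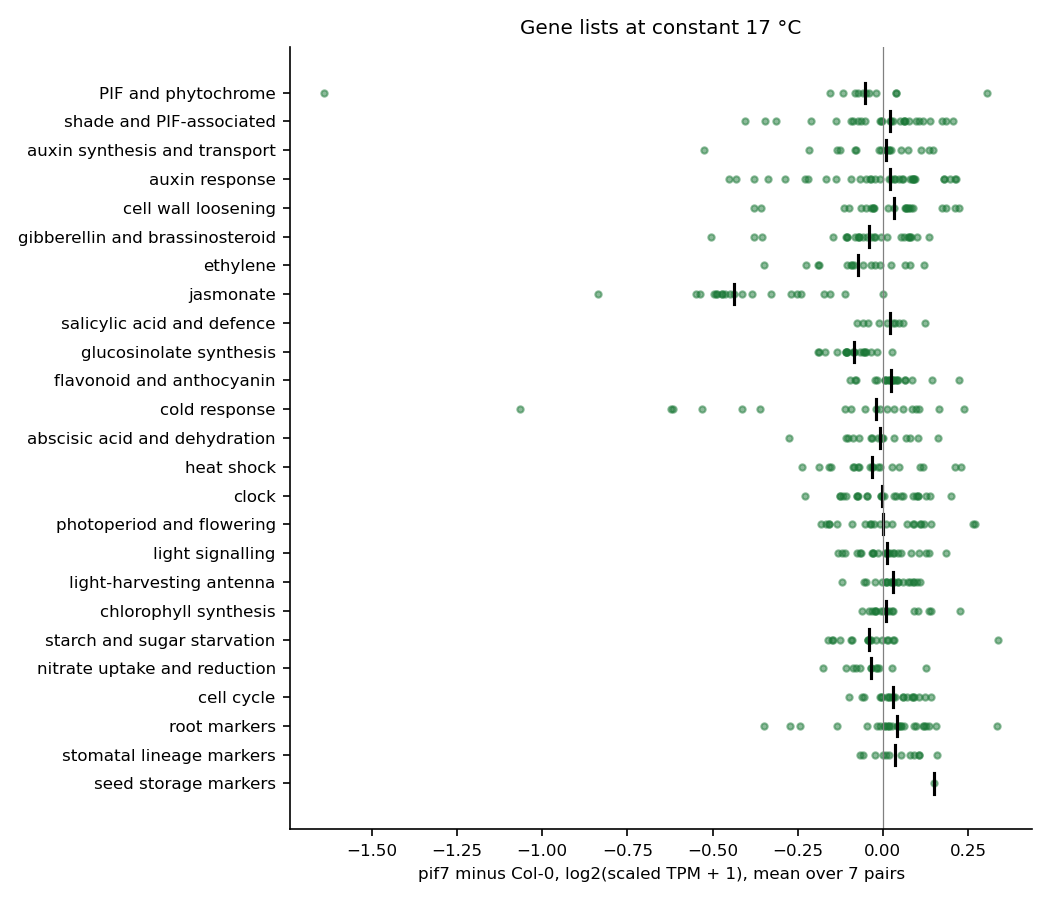
Difference pif7 minus Col-0 in log2(scaled TPM + 1), mean over 7 pairs (x axis), for every tested member of the 25 gene lists (y axis), with the list median as a black bar. PIF7, at -1.64, stands apart in the first list, the jasmonate median lies at -0.44, and the other bars lie within 0.1 of 0 except that of the single seed storage gene, at 0.15.

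The daily timing of clock genes was compared at the resolution of 7 samples a day. Of 25 clock genes, 22 had the same sampled peak in both genotypes and 0 passed, with a median difference of 0.00. LHY and CCA1, the morning MYB factors, peaked at ZT0 in both, with daily ranges of 8.27 and 7.38 log2 units in Col-0 and 8.17 and 7.40 in pif7. The evening genes TOC1 and GI peaked at ZT8 in both. The 3 with another peak were PRR9 (ZT4 in Col-0, ZT5 in pif7), ELF4 (ZT8 and ZT12) and LNK2 (ZT4 and ZT0). With 1 library per time the error of a peak time was not measured.

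Whether the genotype difference varied between lit hours (ZT4, ZT5, ZT8 and ZT12) and the night with its edges (ZT16, ZT20 and ZT0) was tested in the same 14 libraries. In limma 0 of 20594 genes passed, and 222 (1.08%) had an unadjusted p under 0.05. The 5 with the smallest p, AT3G01316, AT1G60830, AT3G27865, AT4G22758 and AT2G35742, had differences (lit minus night) of -1.48, 1.101, 0.84, -1.08 and -1.08, and an adjusted p of 1. AT3G01316, AT3G27865 and AT2G35742 are annotated as small nucleolar RNA genes. AT3G01316 was near the floor, at 0.018 to 2.41 TPM in Col-0 and 0.00 to 2.49 in pif7. Without ZT4 the plastid gene ATCG00110 passed (5.01, adjusted p = 0.000211), and it was named after its values were seen. Genes encoded in the plastid genome had a median of -0.15, with 99 of 133 below 0 and 0 past the test, and their pair medians fell to -0.52 at ZT12 and -0.53 at ZT20 and reached 0.20 at ZT8.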

How the data were processed

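Per the submitters' processing notes, the authors aligned reads to TAIR10 with HISAT2 and quantified genes with StringTie. Versions, strand setting and annotation release are not given in the sources used here. The deposited tables list, per the file headers, a coverage signal, FPKM and TPM per gene. The deposited TPM is treated as another unit, since assembled loci sum to the same total in each library and reference genes, listed again, to 1011597 to 1034801. Coverage and FPKM gave the depth. No read counts were used, so no counting interval is given.

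TPM was rescaled by median-ratio factors and log2(TPM + 1) was fitted with a block per time and a variance trend in limma 3.58.1 (R 4.3.3), with Benjamini-Hochberg adjustment. A gene was tested if 2 or more libraries held 1 TPM or more. The fits were tested on simulated data. Log2 differences understate changes of low genes.

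The comparison, gene lists and naming rule were chosen with earlier results of these data known. Of the list symbols, 17 were not matched. The rule named PIF7, up to 10 genes past the test in each direction averaging 5 TPM or more and with 1 sign in 7 of 7 pairs, the PIF and phytochrome list, and the 5 smallest p between regimes and between lit hours and night. Not all are described. The other 4 genes past the test, and list members described, were named after their values were seen. Tables and figures were made in Python 3.11.15 (matplotlib 3.10.9, numpy 2.4.6, pandas 2.3.3). Sequences were read from RefSeq's TAIR10.1 assembly.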

Additional observations from a re-analysis of the deposited data

Results flagged for a closer look

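The MRD1 difference at ZT5 was 4.09, the lowest of the 7 pairs and apart from the others, which ran from 5.43 to 6.24. At that time the Col-0 library held 1.49 TPM of MRD1, against at most 0.27 TPM in the other Col-0 libraries. This is the library that also stood apart for the JAZ genes. The QQS difference at ZT0 was 2.46, the highest of the 7 pairs and apart from the others at 1.21 to 1.74. Each stood out by the gap to its nearest neighbour relative to the whole range. Of 26 genes examined this way 2 stood out, where chance gives about 1 in 20.

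AT5G44440 had genotype differences that differed between the regimes by 2.96 (constant minus oscillating, adjusted p = 0.0178 in limma), and it entered the test only through Col-0 under the oscillating regime, where its level was high.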

How the results depend on the processing

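Of the 15 genes past the test at constant 17 °C, 9 passed in every alternative that tested them: MRD1, AT4G03990, AT2G05995, AT3G29120, WEB1, HCF243, SADHU3-2, QQS and HEI10. Of these, AT4G03990, AT2G05995, SADHU3-2 and HEI10 were tested in 18 of 19 alternatives. The filter of an average of 5 TPM left them out. No gene past the test changed sign. The count of genes past the test was 9 without the time block, where PIF7, AT4G04223 and AT3G50840 also lost their calls, and 12 to 24 when each time was left out (24 without ZT16). It was 11 to 20 under the other alternatives: FPKM in place of TPM, quantile normalization or no scaling, other pseudocounts (0.1 and 5), other filters (none, or an average of 5 TPM), no variance trend, and all 28 libraries fitted together. Nuclear genes only (15) and removal of a length trend (17) were added after seeing the data, as were list medians with a time left out. Between lit hours and night the count was 0 to 1 when a time was left out (without ZT4 the plastid gene ATCG00110 passed) and otherwise 0. Between regimes it was 0 with a pseudocount of 5, with no filter and with an average of 5 TPM required, and 0 to 3 when a time was left out. AT5G44440 had an adjusted p of 0.00702 to 0.212 over the alternatives that tested it, and did not pass without ZT0, ZT8, ZT12, ZT16 or ZT20. Under the oscillating regime the count was 22 with no filter, 41 with no variance trend, 27 (without ZT16) to 102 (without ZT4) when a time was left out, and 65 to 84 otherwise. Cold response had 14 of 19 members below 0 without ZT0. The reported fits are paired by time of day. The labels give no replicate numbers, so no other pairing was run. With 1 library per genotype and time, the spread between pools of seedlings was not measured.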
